A study of Mus musculus with 6 samples.

Results

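The translation initiation factor genes were taken as every probe set with a single platform gene symbol that starts with Eif1 to Eif6, leaving out Eif2ak2, an interferon-inducible kinase, and the Y-linked Eif2s3y. The rule gave 100 probe sets of 40 genes, out of 22626 probe sets and 12393 named genes on the array. Total RNA came from the proximal part of the flushed colon, in 3 wild-type samples and in 3 from heterozygotes that carry a gene-trap allele of Mthfd1 on 1 chromosome. Mthfd1 encodes a cytosolic enzyme that interconverts folate-bound one-carbon units. All mice were 8 weeks old, had been weaned at 3 weeks and had then eaten the AIN-93G control diet for 5 weeks. The titles number the arrays of a genotype as biological replicates, and whether any of them pools animals is not stated in these sources. The line was made from a BayGenomics gene-trap resource. Which clone was used, where the trap sits, the strain and the sex are not stated in these sources. The series concerns Mthfd1 in intestinal tumour development, and the labels give no tumour-inducing treatment for these animals.

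Eukaryotic initiation brings a small ribosomal subunit, carrying the initiator methionyl tRNA on the GTPase eIF2, to the capped end of an mRNA and scans it to a start codon. The cap is bound by eIF4E, whose scaffold eIF4G holds the helicase eIF4A and meets the subunit through eIF3, and eIF5 and eIF5B complete start-site recognition and subunit joining. Its best known controls are a pair: phosphorylation of eIF2 by stress kinases, which blocks its exchange factor eIF2B, and the eIF4E-binding proteins, which mTOR releases from eIF4E. In the intestinal epithelium, with its constant renewal, these factors are expressed broadly rather than in a single cell type.

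Each value is a deposited intensity, a linear brightness per probe set that had been scaled to a common mean on every array, and it can be compared between arrays for 1 probe set but not between genes. Genes are represented by their brightest probe set unless another is named. The _x_at and _s_at types, 21 of the 100 probe sets, may also bind related transcripts. They include the brightest probe sets of Eif1a, Eif2b2, Eif3c, Eif3m, Eif4g2, Eif4h, Eif4ebp1 and Eif5a. Of the 100 probe sets, 83 passed the filter, a mean at or above the 40th percentile, and these held all 40 genes. The other 17, from 13 genes, ranged from 0.8 to 183.8 on single arrays, and each of those genes kept a brighter probe set. A further 5 probe sets that name an initiation factor beside another gene (Eif3j1 with Eif3j2, Eif4a3 and Eif1a) stood outside the rule. Eif1, Eif2s1, Eif2b3, Eif3g, Eif4g1 and Eif4ebp3 had no probe set with a single symbol in the annotation used and were not analysed here.

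Before the initiation factors themselves, the arrays were checked. Mthfd1 read 949.9, 839 and 881 in wild-type and 453, 509.6 and 549 in heterozygous arrays at its brightest probe set (-0.80). Every array labelled heterozygous was lower than every one labelled wild-type. The colon markers Car1, Slc26a3, Krt20, Vil1, Epcam and Cdx2 were all present, with summed intensities of 43452 to 53124 over the 6 arrays. Summed over 4 of 5 listed genes each, T-cell markers were 280 to 366 in wild-type and 322 to 822 in heterozygous arrays, proliferation markers 1924 to 3329 and 3222 to 3476, and interferon-response genes, Eif2ak2 among them, 605 to 1002 and 2045 to 3169. The interferon-response sums did not overlap between the genotypes, and the T-cell and proliferation sums did. The ileal genes Fabp6, Apoa1, Apob and Apoa4 summed to 1243 in wild-type replicate 3, 17250 in wild-type replicate 2 (the highest), 12447 in heterozygous replicate 2 and at most 5581 on the others. Goblet, smooth muscle, macrophage and B-cell marker sums overlapped between the genotypes, and the highest array was between 1.18 and 1.44 times the lowest. What part these differences have in the values of single initiation factor genes was not tested. In whole tissue, fewer cells of a type and less RNA per cell cannot be told apart.

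The initiation factor genes were close to level between the genotypes. The median log2 fold change, heterozygous minus wild-type, was 0.02 over the 40 genes, with quartiles of -0.03 and 0.06, against a median of 0.01 and quartiles of -0.10 and 0.11 over all 8241 tested genes. Changes within 0.1 log2 of 0 were seen for 29 of the 40 (72.5%), and for 46.9% of all tested genes. These comparisons were not matched for brightness. Brighter probe sets vary less here, and 23 of the 40 genes were among the brightest 2060 tested genes. By limma with Benjamini-Hochberg adjustment over all tested probe sets, 0 of the 40 passed a threshold of 0.05, where 0% of all genes did. Their adjusted p ran from 0.867 to 0.999. Mthfd1 itself, lower on every heterozygous array, did not pass either (limma adjusted p = 0.121 at its brightest probe set and 0.108 at the next). The threshold can therefore miss a change of that size. At an unadjusted p under 0.05 there was 1 gene higher (Eif5b, the subunit-joining GTPase) and 1 lower (Eif2ak4, the amino acid sensing kinase GCN2), or 5.0% of the 40, against 5.4% of all tested genes (3.18% higher and 2.22% lower). Genotypes did not overlap for 1 gene higher (Eif5b) and 1 lower (Eif5), again 5.0%, against 10.7% of all tested genes (5.59% higher and 5.06% lower). In either direction at any size, 23 were higher and 17 lower, where 51.6% of all tested genes were higher. Over both directions, the shares at an unadjusted p under 0.05 and without overlap were at or below the background. None of these counts, the 23 higher among them, is a result about these genes.

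The intervals say how much change the 6 arrays leave room for. For 38 of the 40 genes the 95% interval of the fold change, from limma and not adjusted for the number of genes, lay within 1.5-fold in either direction, as it did for 73.4% of all tested genes. Eif2ak4 and Eif5b were the 2 exceptions. The share of all tested genes was not matched to the 40 for brightness. The count at an unadjusted p under 0.05 depended on single arrays: 5 genes had an unadjusted p under 0.05 without wild-type replicate 3 (Eif4a2, Eif5, Eif4ebp1, Eif4e3 and Eif5b), 0 when wild-type replicate 2 was left out, 0 when heterozygous replicate 3 was, and 1 for each of the remaining arrays. With both ileal-rich arrays left out, wild-type replicate 2 and heterozygous replicate 2, it was 1 (Eif2ak4), with 8 genes that did not overlap, or 20.0% of the 40 against 28.5% of all tested genes. Over all genes the share at an unadjusted p under 0.05 ran from 3.11% without heterozygous replicate 3 to 7.62% without wild-type replicate 3.

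**Figure D1:**
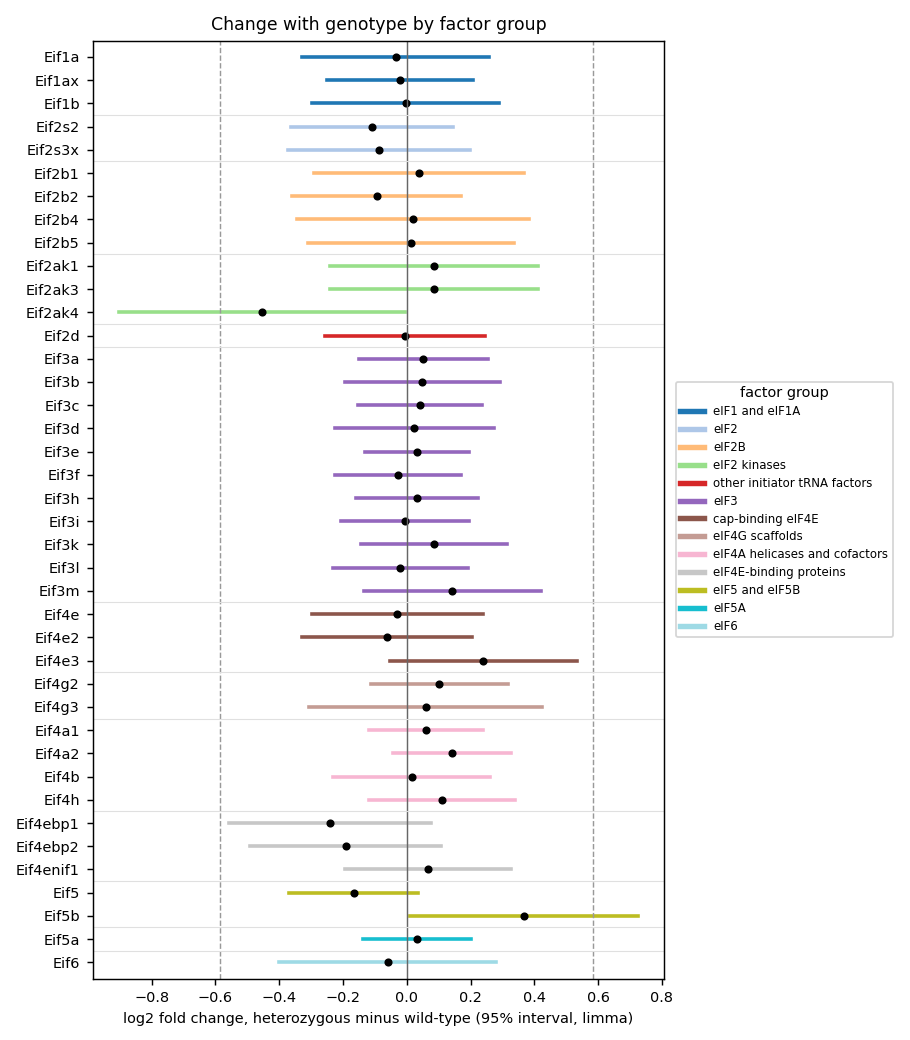
Change with genotype for the 40 initiation factor genes, ordered and coloured by factor group. Points are the limma log2 fold change of the brightest probe set (heterozygous minus wild-type, n = 3 arrays each), bars are 95% intervals, and dashed lines mark 1.5-fold; the bars of Eif2ak4 and Eif5b alone cross a dashed line.

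Of the 40 genes, 32 had a promoter window in the RefSeq table of GRCm38.p6, 250 bases before to 50 after each listed start, and 9 short motifs were searched in it on both strands. Windows with the E-box CACGTG, a site that MYC and USF family factors bind, were found for 8 of the 32 genes (25%), and for 8.91% of 17491 protein-coding genes with a window. The 32 had passed the intensity filter, whereas the 17491 were taken whether or not they were expressed in these samples. The shares given here are therefore not like for like. These sites and those of the next motif are shown because their shares were the furthest, as a ratio, above those of all genes among the motifs searched. The motif is in capitals.
Eif4e (chr3:138527028-138527057, plus strand): ctcgccagcgacCACGTGatcacttttttt
Eif4e (chr3:138527192-138527221, plus strand): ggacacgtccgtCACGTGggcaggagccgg
Eif4h (chr5:134639488-134639517, minus strand): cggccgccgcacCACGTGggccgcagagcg
Eif3k (chr7:28981915-28981944, minus strand): ctggaaggaaatCACGTGgtagacaaaaaa
Eif3f (chr7:108934335-108934364, plus strand): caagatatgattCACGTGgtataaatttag
Eif1b (chr9:120492570-120492599, plus strand): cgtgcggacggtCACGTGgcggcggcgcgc
Eif4a1 (chr11:69672595-69672624, minus strand): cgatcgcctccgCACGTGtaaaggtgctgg
Eif5a (chr11:69921443-69921472, minus strand): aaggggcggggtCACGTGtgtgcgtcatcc
Eif5a (chr11:69920791-69920820, minus strand): gcgctgcgcggcCACGTGaggtgggggagg
Eif3a (chr19:60790654-60790683, minus strand): ccgcgagggaatCACGTGgttccttccttt
The ETS-type site CCGGAAGT was found for 7 of the 32 (21.9%), against 5.69% of all genes. Capitals mark it, and ACTTCCGG is the same site on the other strand.
Eif4e2 (chr1:87213905-87213934, plus strand): tcgccagccaaCCGGAAGTagccgggccct
Eif2b4 (chr5:31193120-31193149, minus strand): cccagtgcacgCCGGAAGTtgtagtccgct
Eif2ak1 (chr5:143817796-143817825, plus strand): gctcttgtgttACTTCCGGcttggggggag
Eif5a (chr11:69920667-69920696, minus strand): cagccgtagcaCCGGAAGTgttccccattg
Eif2b2 (chr12:85219486-85219515, plus strand): cctctctcggcCCGGAAGTgaaacagtgct
Eif3d (chr15:77970877-77970906, minus strand): agctgtgacacACTTCCGGttgtgtctcac
Eif3l (chr15:79075176-79075205, plus strand): ggctgggcgggACTTCCGGtccggccaagc
A GC box, GGGCGG, was present for 24 of the 32 (75%, all genes 49.2%), CCAAT for 13 (40.6%, all genes 42.3%) and TATAAA for 2 (6.25%, all genes 14.8%). A pair of TTTC with 2 bases between them, the spacing of interferon response elements, was present for Eif2s3x and Eif3a (6.25%, all genes 3.94%). The stress-response sites TGACGTCA and ATTGCATCA were present for 0 of the 32 (all genes 2.54% and 0.206%), and so was a longer palindrome centred on CGCG (all genes 0.755%). GGGCGG and the sites printed above can share a window, as in Eif5a, and genes with several listed starts had more windows to match (18.8% of the 32 and 15.8% of all genes). The 8 genes with an E-box had a median log2 fold change of 0.04, between -0.03 and 0.11, and the 7 with the ETS-type site one of 0.02, between -0.09 and 0.09. A match is a match of letters, and no binding was measured.

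Array by array, the mean of the 40 genes, each centred on its mean log2 value, lay between -0.01 and 0.02 on the 6 arrays. The highest was heterozygous replicate 3, at 0.02, where the same mean over all tested genes was also 0.02. Over all tested genes it ran from -0.02 on wild-type replicate 1 to 0.03 on wild-type replicate 3. Spread between arrays was small. The SD of log2 values within a genotype had a median of 0.12 over the 40 genes and 0.17 over all tested genes, and 32 of the 40 lay under the latter. Brighter probe sets vary less on these arrays, and 23 of the 40 genes were among the brightest 2060 tested genes. Among those the median SD was 0.10 for the 23 and 0.14 for all, with 20 of the 23 under the latter. Among the 2060 next in brightness the medians were 0.14 for 14 members and 0.16 for all, with 8 of the 14 under it. For 38 of the 40 the highest array was under 1.5 times the lowest (after adding 16), as for 65.8% of all tested genes.

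**Figure D2:**
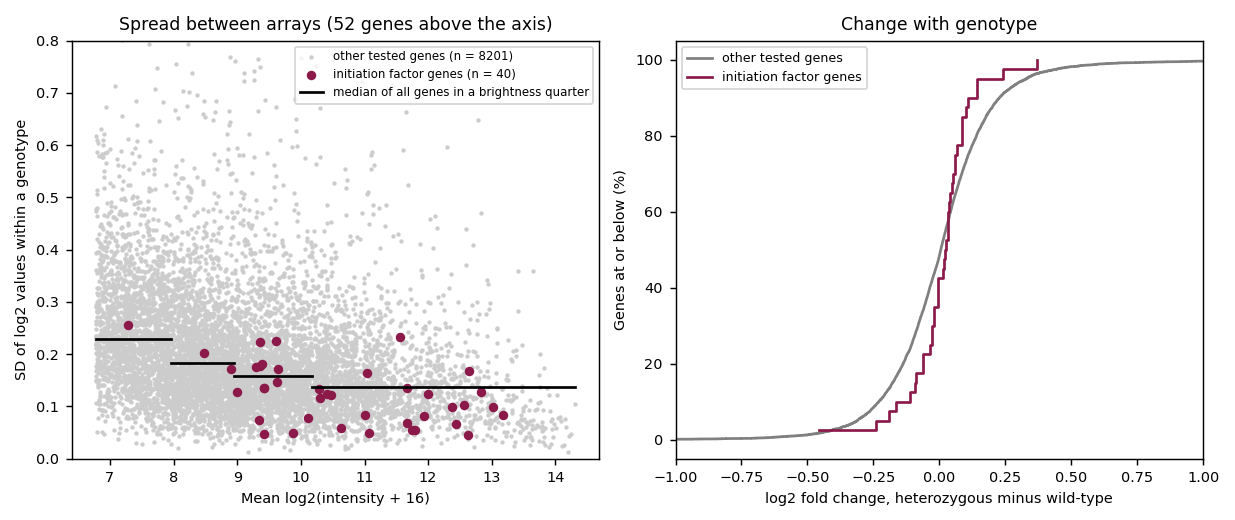
Left, SD of log2(intensity + 16) within a genotype against mean brightness for the 40 initiation factor genes and the other 8201 tested genes, with black bars at the median of each of 4 equal brightness classes (0.23, 0.18, 0.16 and 0.14 from dim to bright). Right, cumulative share of genes by log2 fold change, where the steeper curve of the initiation factor genes runs from -0.45 to 0.37.

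The factors that sit on the small subunit during scanning were the first group. Eif1b, a close relative of the start-codon fidelity factor eIF1, read 592, 659 and 761 in wild-type replicates 1 to 3 and 689, 679 and 630.4 in heterozygous replicates 1 to 3 (log2 fold change -0.00, 95% interval -0.30 to 0.29). Eif1ax, the X-linked gene of the scanning factor eIF1A, read 1663, 1583 and 1485 against 1546, 1572 and 1539 (-0.02, -0.25 to 0.21). Wild-type and heterozygous values overlapped for both. Eif1a, its autosomal relative, read 663, 694 and 672 against 654, 580.1 and 757 on an _s_at probe set, a type that may also bind related transcripts, so its reading is uncertain. The heterozygous arrays there lay on both sides of the 3 wild-type arrays.

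Among the 2 measured subunits of eIF2, Eif2s2, the beta subunit, read 7217, 6066 and 6574 in wild-type and 7164, 5799.8 and 5512 in heterozygous colon (log2 fold change -0.11, SE 0.11, limma adjusted p = 0.944). Heterozygous replicate 1 sat with the wild-type arrays and the other two below all of them. All 6 tested probe sets of Eif2s2 had a negative fold change, from -0.36 to -0.06, and the groups overlapped at each; these probe sets read 1 transcript and are not replicates. Eif2s3x, the gamma subunit that carries the GTP, read 1881, 2210.2 and 2424 against 1895, 2274 and 1944 (-0.09), while its other 2 probe sets had 0.28 and 0.07. Eif2s3x has a near-identical Y-linked copy, so how its probe sets divide the signal is uncertain. The median over the 2 genes was -0.10. It was 0.02 without heterozygous replicate 2, but there another probe set of Eif2s3x was the brightest and stood for the gene. That value therefore does not show the effect of the array alone.

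The exchange factor eIF2B reloads eIF2 with GTP, and 4 of its subunits were measured. Eif2b2, the beta subunit, read 1464, 1189 and 1239.5 in wild-type and 1175, 1208 and 1247 in heterozygous arrays at its brightest probe set (-0.09, interval -0.36 to 0.17), with overlap. Its dimmest tested probe set read 323, 301 and 309 against 271, 246 and 237, so every heterozygous array was below every wild-type array there (log2 fold change -0.29, SE 0.13, limma adjusted p = 0.867). Both of these probe sets are of the _x_at type and may also bind related transcripts. The remaining one had -0.13. Eif2b2 lies 8.97 Mb from Mthfd1 on chromosome 12 in GRCm38.p6, and Eif5, 35.3 Mb away, is the only other of the 40 genes on that chromosome. Eif2b1, Eif2b4 and Eif2b5 had log2 fold changes of 0.04, 0.02 and 0.01, and Eif2b4 was widest among them, from 615 to 876, both in heterozygous arrays.

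Kinases that phosphorylate eIF2 respond to haem shortage (Eif2ak1), endoplasmic reticulum stress (Eif2ak3) and amino acid shortage (Eif2ak4). Eif2ak4 read 139.8, 157 and 211 in wild-type replicates 1 to 3 and 104, 144 and 108 in heterozygous replicates 1 to 3, or 169 ± 37.1 and 119 ± 22 (SD, n = 3 each). Heterozygous replicate 2 lay above the lowest wild-type array, so the groups overlapped. The log2 fold change was -0.45 (SE 0.20, interval -0.90 to -0.01), the lowest of the 40 genes, with a limma adjusted p of 0.873 and an exact permutation p of 0.2, where 3 against 3 arrays can give no less than 0.1. It was -0.30 without wild-type replicate 3, and -0.62 with both ileal-rich arrays left out. Eif2ak4 was the only 1 of the 40 among the dimmest 2061 tested genes and had the widest SD within a genotype (0.26 on the log2 scale). Eif2ak1 read 446, 502 and 397 against 413, 529.9 and 489.6 and Eif2ak3 602, 553 and 719 against 622, 611 and 756, with fold changes of 0.09 and 0.08 and overlap at both. Eif2ak2, outside the group by its rule, read 141, 118 and 117 against 143, 125 and 178 at its brighter listed probe set (0.21) and had -0.14 at the other, with overlap at each. Eif2d, which can place tRNA on the subunit without eIF2, differed little at its brightest probe set, 645, 661 and 704 against 668, 674 and 659.9 (-0.01, interval -0.26 to 0.24). Its other tested probe sets pointed apart. One read 237, 235 and 242 against 286.9, 273.6 and 248.9 without overlap (0.17). The other, of the _x_at type, read 259.6, 282 and 174 against 258, 177 and 137 (-0.32).

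**Figure D3:**
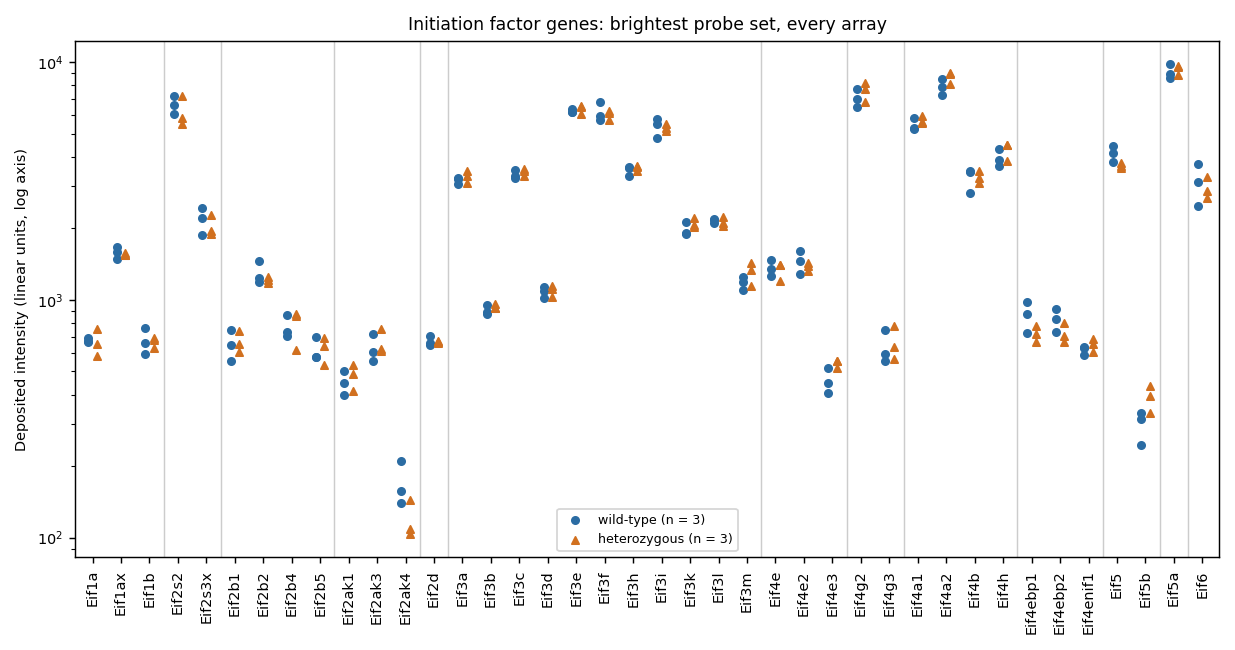
Deposited intensity (log axis) of the brightest probe set of each of the 40 initiation factor genes on every array, circles for the 3 wild-type and triangles for the 3 heterozygous samples, with grey lines between factor groups. Circles and triangles interleave for all genes but Eif5 and Eif5b; heights of different genes are not comparable.

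The scaffold eIF3 was the largest group, with 11 subunits measured, and it varied least among arrays, of the groups with more than 1 gene. Its median log2 fold change was 0.03, from -0.03 to 0.14, with 8 subunits higher, 3 lower and none at an unadjusted p under 0.05, and the median SD within a genotype was 0.07 on the log2 scale. Eif3a, the core subunit that spans the complex, read 3069.8, 3254 and 3216 against 3484, 3318 and 3097, and Eif3b, its partner in the core, 948, 870.1 and 893 against 921, 958 and 925. Eif3c read 3245, 3328 and 3508 against 3489.9, 3317 and 3566. At each of the 3, the lowest array was wild-type and the groups overlapped.

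Eif3e was the steadiest of the 40 genes, at 6179, 6334 and 6173 in wild-type and 6542, 6071 and 6497 in heterozygous colon, an SD of 0.04 on the log2 scale and an interval of -0.13 to 0.19. A dimmer _x_at probe set of Eif3e read 2219.7, 2369 and 2014 against 2153, 2063 and 1224, where heterozygous replicate 3 alone stood low. The MPN-domain subunits Eif3f and Eif3h had fold changes of -0.03 and 0.03, and Eif3d, a subunit that can itself bind certain caps, 0.02. Eif3i read 5735, 4805 and 5478 against 5497, 5147 and 5275 (-0.01). Among the outer subunits, Eif3k read 2132, 1902 and 1891 against 2209.8, 2055 and 2022 (0.09, limma adjusted p = 0.951) and Eif3l had -0.02. Eif3m had the smallest p of the complex, with 1246, 1096 and 1186 against 1428, 1143 and 1341 (log2 fold change 0.14, SE 0.12, limma adjusted p = 0.936); heterozygous replicates 1 and 3 were above all wild-type arrays and replicate 2 was between them.

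Eif4e, the gene of the canonical cap-binding protein, read 1477, 1256 and 1351 in wild-type and 1401, 1198 and 1404 in heterozygous arrays (-0.03, interval -0.30 to 0.24). Eif4e2, a cap-binding homologue that does not pair with eIF4G and represses mRNAs, read 1604, 1462 and 1279.5 against 1435, 1319 and 1391 (-0.06), and its next probe set 1229, 1089 and 1085 against 1042, 1049.6 and 773, with every heterozygous array lower (-0.26, limma adjusted p = 0.911). Eif4e3, the most divergent homologue, read 448, 406 and 518 against 556, 516 and 551 (log2 fold change 0.24, SE 0.13, limma adjusted p = 0.91). Wild-type replicate 3 exceeded heterozygous replicate 2, which is the whole of the overlap there, and the second probe set of Eif4e3 had 0.08.

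The eIF4G-type scaffolds and the helicase genes all had positive fold changes at their brightest probe sets, none with an unadjusted p under 0.05. Eif4g2, which lacks the eIF4E-binding part of eIF4G and serves cap-independent initiation, read 6454, 7689.6 and 6965 against 7727, 8127 and 6817 (0.10, interval -0.11 to 0.32, limma adjusted p = 0.937), and its 3 tested probe sets lay between 0.10 and 0.14. Eif4g3 read 554, 591 and 744 against 563, 633 and 776 (0.06). The major helicase gene Eif4a1 read 5810.4, 5291 and 5254 against 5573, 5560 and 5905 (0.06), while another of its probe sets had -0.16. Eif4a2, its close paralogue, read 7253, 7858 and 8484 against 8927, 8984 and 8104 (log2 fold change 0.14, SE 0.08, limma adjusted p = 0.911), where only wild-type replicate 3 reached into the heterozygous range. Of the helicase cofactors, Eif4b had 0.02 and Eif4h read 3889.6, 4319 and 3647 against 4459, 4485 and 3849 (0.11, limma adjusted p = 0.937), on probe sets of Eif4h that are all of the _x_at or _s_at type. The median of the 4 helicase and cofactor genes was 0.08, and 0.03 when all tested probe sets of a gene were averaged.

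Both measured eIF4E-binding protein genes, whose products hold eIF4E away from eIF4G until mTOR phosphorylates them, read lower in heterozygous colon without passing the test. Eif4ebp1 read 871, 983 and 726 in wild-type and 667, 720.5 and 777 in heterozygous arrays, or 860.3 ± 129 and 721 ± 55.2 (SD, n = 3 each; log2 fold change -0.24, SE 0.14, limma adjusted p = 0.911). Wild-type replicate 3 was the array that overlapped. The other 2 tested probe sets of Eif4ebp1 had -0.19 and -0.14. Eif4ebp2 read 833, 917 and 736 against 706, 800.2 and 662 (-0.19, interval -0.49 to 0.11, limma adjusted p = 0.916), but its other tested probe sets had -0.05 and 0.04. Eif4enif1, which shuttles eIF4E into the nucleus and into P-bodies, had 0.07. The median of these 3 genes was -0.19, and -0.07 when all tested probe sets of a gene were averaged. It was -0.12 without wild-type replicate 2, and it ran to -0.27 without wild-type replicate 3.

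The late factors held both genes whose genotypes did not overlap. Eif5b read 246, 316 and 333 in wild-type and 336, 435 and 396 in heterozygous arrays, or 298 ± 46.1 and 389 ± 50.1 (SD, n = 3 each), with every heterozygous array higher. Its log2 fold change was 0.37 (SE 0.16, interval 0.01 to 0.73), the highest of the 40 genes, at a limma adjusted p of 0.867 and 0.1 by the exact permutation test, its floor here. The gap is narrow, since heterozygous replicate 1 at 336 stood just above wild-type replicate 3 at 333, and the value was 0.24 without wild-type replicate 1. With both ileal-rich arrays left out it was 0.33. A second probe set of Eif5b read 128, 126 and 126 against 144, 150.1 and 175, again with no overlap (0.27, limma adjusted p = 0.911). Proliferation markers summed to 3329, 1924 and 2182 in wild-type replicates 1 to 3 and 3222, 3264.5 and 3476 in heterozygous replicates 1 to 3. Their part in the Eif5b values was not tested.

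Eif5, the activator of eIF2's GTPase at the start codon, read 4133, 4433 and 3799 in wild-type and 3639.7, 3755 and 3599 in heterozygous arrays, each heterozygous array lower (log2 fold change -0.17, SE 0.09, limma adjusted p = 0.91, exact permutation p = 0.1). Its other 3 probe sets differed less, with fold changes of -0.03, -0.01 and 0.01 and overlap at each, and the mean of all 4 gave -0.05. Of the 4 probe sets 3 were lower, and the separation of the genotypes was seen at 1 of them. Eif5a, the hypusine-bearing factor now known mainly for elongation, read 9793, 8608 and 8909 against 8819, 9503 and 9597 (0.03, interval -0.14 to 0.20). Eif6, which keeps free large subunits from joining, read 3709, 3139 and 2475 against 2882, 2674 and 3297 (-0.06); wild-type replicates 1 and 3 were the highest and lowest of the 6 arrays.

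**Figure D4:**
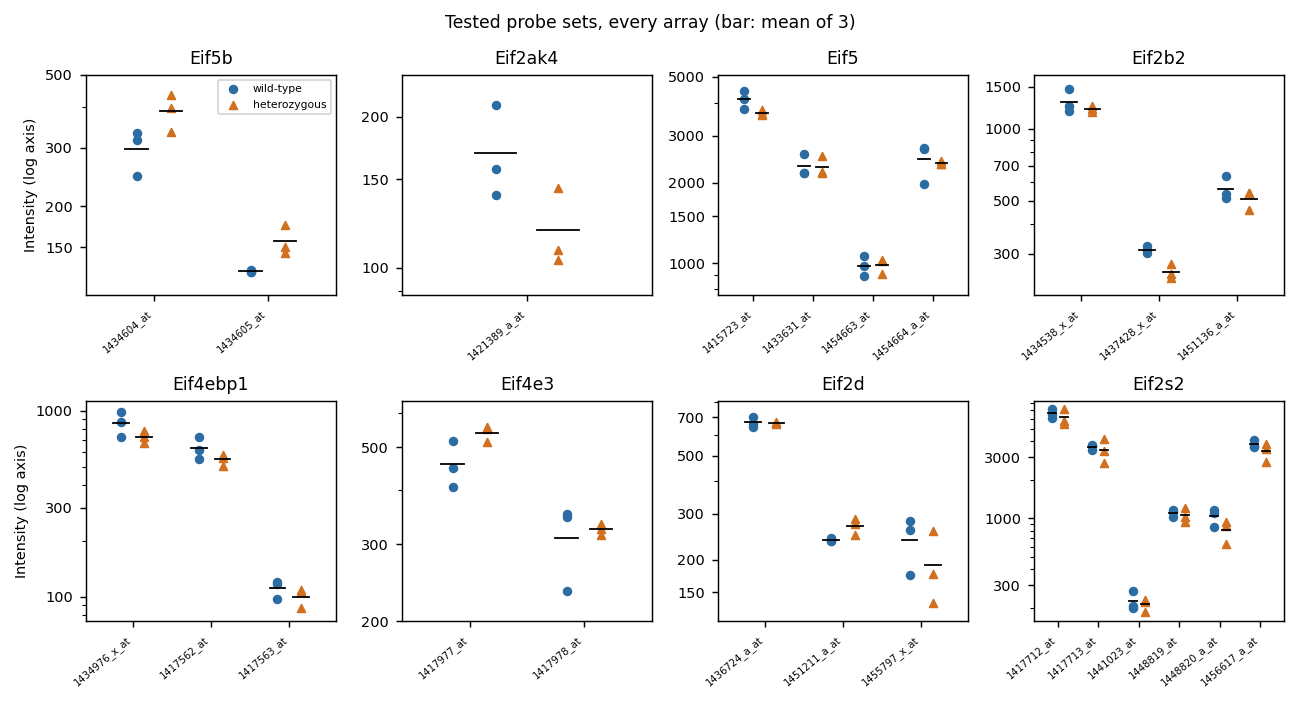
Intensity (log axis) on every array at each tested probe set of 8 genes, with circles for wild-type, triangles for heterozygous samples and a bar at the mean of 3. Both probe sets of Eif5b and 1 of 4 of Eif5 separate the genotypes, and those of Eif2d point in different directions.

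Probe sets of 1 gene often gave different signs at changes of this size. Of 23 genes with more than 1 tested probe set, 12 had a single direction and 11 had both, and the widest gap, 0.49 log2, was in Eif2d. Among the 83 tested probe sets the heterozygous mean exceeded the wild-type mean at 42 and was under it at 41, whereas 50.7% of all tested probe sets were higher. An unadjusted p under 0.05 was reached by 3 of them (3.61%, against 5.69% of all tested probe sets, 3.12% higher and 2.56% lower), namely those of Eif5b, Eif2ak4 and Eif2b2, and 6 did not overlap (7.23%, against 10.4%), 3 higher (5.26% of all) and 3 lower (5.1% of all). The 95% interval lay within 1.5-fold for 75 of the 83 (90.4%, against 71.3%), again without matching for brightness.

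Around initiation, a list of 49 genes of elongation, termination, poly(A) binding, mTOR signalling, the integrated stress response and mitochondrial initiation was read for context. Of these, 40 were tested, 0 passed adjusted, and 2 were higher and 1 lower at an unadjusted p under 0.05 (7.5%, against 5.4% of all tested genes). Paip2, which takes poly(A)-binding protein off its eIF4G partner, read 3336, 3229 and 3974 in wild-type and 4353, 4247 and 4256 in heterozygous arrays, all heterozygous values being higher (log2 fold change 0.29, SE 0.10, limma adjusted p = 0.75). The adaptor Nck1 read 349, 359 and 560.2 against 549, 558 and 649.8 (0.48). Pdcd4, an inhibitor of eIF4A, read 4118, 3911 and 4559 against 4171, 3180.4 and 2909 (-0.31), overlapping through heterozygous replicate 1. The count of 3 became 1 when wild-type replicate 1, wild-type replicate 2 or heterozygous replicate 3 was left out, and 0 with both ileal-rich arrays left out. The 8 elongation genes had a median of 0.02 and the 6 stress-response genes, Atf4 among them, one of -0.03. Of the 8 elongation genes 7 were higher and 1 lower, of the 11 mTOR and MNK genes 1 was higher and 10 lower (median -0.08), and of the 6 stress-response genes 3 were higher and 3 lower, where 51.6% of all tested genes were higher. None of these passed the adjusted threshold.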

How the data were processed

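The 6 arrays, 3 per genotype, were taken as deposited. The deposited values are unlogged intensities, with a single value for each probe set of each array, made by the authors with GCOS, per the submitters' processing notes; its version and settings are not stated in these sources. After trimming 2% at each end, each array's mean was 500. Median intensity was 156.8 to 168.2, no detection calls were used, and 3 arrays per genotype limit the precision. RNA had been amplified and biotin-labelled, per the labels' protocols. Gene names came from the platform annotation, updated through the GRCm38.p6 gene table (0 altered). Probe sets with several symbols (691), with none (1555) and controls (64) named no gene.

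Values entered limma 3.58.1 (R 4.3.3; lmFit, eBayes with a variance trend, two-sided) as log2(intensity + 16), which understates changes of dim genes. Probe sets below the 40th percentile of mean log2 value were left out, leaving 13576. P-values were adjusted over all of them by Benjamini-Hochberg, with a threshold of 0.05. The fit was tested on data simulated with the spread of these arrays. At the adjusted threshold it missed most changes of 1.5-fold and called most of the larger ones. Many altered probe sets had been put into the simulated data, and the adjustment is milder when many are altered. The deposited values gave 0 adjusted calls, so the simulated shares do not carry over to them. Mthfd1, at a log2 fold change of -0.99 on its second probe set, did not pass. A gene stood by its brightest tested probe set with 1 symbol. An exact permutation test, two-sided, was run on single values. Limma p-values set the genotype difference against the spread between these arrays, and permutation p-values set it against differences under relabelled arrays.

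The factor groups, the pathway and marker lists, the tests and the alternatives were chosen with earlier results of these data known. Values on each array were to be printed for the 12 genes with the smallest p, the first of each factor group and close paralogues; other genes named were chosen after their values were seen. Alternatives covered normalization, pseudocount, filter, variance model, array weights, a replicate block, probe set choice and each array left out. Leaving out the arrays with most ileal signal was added after seeing the data.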

Additional observations from a re-analysis of the deposited data

How the results depend on the processing

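Of 756 single-gene fold changes under alternatives, 749 stayed within 1 SD of the reported value, the SD being that of log2 values within a genotype. That count says little on stability. At the same probe set, leaving out 1 array cannot move a fold change by more than this SD. The filter, variance model and replicate block settings leave it unaltered. Of the 756, 0 had a limma adjusted p under 0.05 (smallest 0.585). In all, 22 genes changed sign somewhere, each with a reported size of at most 0.09. Eif5b ranged from 0.24 to 0.47, Eif2ak4 from -0.62 to -0.30 and Eif5 from -0.22 to -0.05. The 2 genes with an unadjusted p under 0.05 became 1 with the 60th percentile filter, 1 with array weights, 0 with no filter, 1 with the replicate block, 1 without the arrays with most ileal signal, and 0 to 5 leaving out single arrays. The 2 that did not overlap became 6 with the mean of each gene's probe sets, 8 without the ileal-rich arrays, and 2 to 9 leaving out single arrays. Over all tested genes the share without overlap, 10.7% as reported, was 10.8%, 28.5% and 16.8% to 24.5% in these settings. The share of the 40 was above it with the mean of probe sets and without heterozygous replicate 2 or 3. It was below it without the ileal-rich arrays and without each other single array. With fewer arrays the share thus rose for all genes, and these counts are not a result about the 40. The median over the 40 genes was 0.037 without the ileal-rich arrays and -0.0088 to 0.046 leaving out single arrays. The mean of probe sets gave 0.033 for eIF4A with its cofactors and -0.068 for the eIF4E-binding proteins. For eIF2, leaving out single arrays gave -0.13 to 0.022 and leaving out the ileal-rich arrays 0.013, where eIF3 gave 0.064. The brightest probe set was picked anew in each of these settings. The eIF2 values of 0.022 and 0.013 came with another probe set of Eif2s3x standing for that gene. The 3 pathway genes became 0 without the ileal-rich arrays and 1 to 4 leaving out single arrays. Over the whole table, 0 adjusted calls became 4 with array weights, 7 with the mean of probe sets, 2 with median subtraction, 8 with robust variance, 7 without _x_at and _s_at probe sets, and 0 to 39 leaving out single arrays (39 without heterozygous replicate 1). The 772 unadjusted became 443 with the 60th percentile filter, 1395 with no filter, 501 without the ileal-rich arrays and 439 to 1038 leaving out single arrays. The cause was not tested for any of these. Same-numbered arrays' deviations correlated at -0.124, 0.493 and 0.042. The value of 0.493, for the replicate 2 arrays, was the highest of any wild-type and heterozygous pair, and these are the ileal-rich arrays. The labels give the arrays only a shared number. With the replicate block 1 gene rather than 2 had an unadjusted limma p under 0.05. Arrays give no counts, and 3 per genotype leave most fold changes an SE near 0.11.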
